A study of Mus musculus with 2 samples.

Results

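Muscle energy metabolism genes supply a contracting muscle cell with ATP. The 10 genes described here are those of muscle glycogen breakdown, glucose uptake, glycolysis, creatine phosphate, AMP deamination and oxygen storage, namely Pygm, Phkg1, Slc2a4, Pfkm, Pgam2, Eno3, Ckm, Ckmt2, Ampd1 and Mb. They were chosen by name, with the signals of these same arrays known, out of 12393 genes that have a probe set (a group of probes for 1 transcript) annotated to a single gene symbol. Of the 10, 9 had such a probe set, 12 probe sets in all, and Ampd1, the muscle AMP deaminase, had none and is given no value.

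RNA was taken from teratomas, the mixed-tissue tumours that grow from transplanted pluripotent stem cells, and was hybridised to Affymetrix mouse arrays. The B6 ES group had tumours of C57BL/6 (B6) embryonic stem cells, and the EiPS group had tumours of EiPS cells of the same strain, an induced pluripotent stem cell line named 1E12 in the labels, whose tumours the submitters describe as regressing. Both kinds of cell were placed under the skin of male B6 mice, whose age is not given, and tumours were cut out at week 6 with no other treatment named. Each group is 1 array of RNA pooled from 2 tumours of 1 line. There is therefore no replicate error and no test, and each value compares these 2 pools. Graft and host share the strain, so the array does not tell their RNA apart. In pooled tissue, fewer muscle cells and less RNA per muscle cell cannot be told apart either.

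Skeletal muscle stores glucose as glycogen, and glycogen phosphorylase, switched on by phosphorylase kinase during contraction, releases it for glycolysis. Creatine kinases keep ATP level by passing phosphate between creatine and ATP, and myoglobin holds oxygen close to the mitochondria. Many of these steps are run in muscle by an isoform encoded by its own gene, while other tissues use a sister gene. The muscle isoforms thus serve as marks of muscle, though not of skeletal fibres alone, since some are also expressed in heart and fat.

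Shown are the sequences before the start sites of the 3 members with the lowest differences. That of Phkg1, whose brighter probe set was not lower, is shown as well. Letters of sites that muscle regulators are known to bind can be looked for in these sequences. Each is the 250 bases before a RefSeq start site (GRCm38.p6), 5′ to 3′ on the gene's strand. Capitals mark CAGCTG, an E-box of the kind bound by MyoD family proteins, and in Pgam2 also the motif named MEF2.
Pygm, chr19:6384158-6384407, plus strand: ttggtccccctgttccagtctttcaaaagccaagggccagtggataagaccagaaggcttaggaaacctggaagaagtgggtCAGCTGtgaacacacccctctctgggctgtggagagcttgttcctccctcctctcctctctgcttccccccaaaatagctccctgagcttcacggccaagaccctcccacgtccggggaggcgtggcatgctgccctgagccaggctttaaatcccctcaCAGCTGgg
Mb, chr15:77022788-77023037, minus strand: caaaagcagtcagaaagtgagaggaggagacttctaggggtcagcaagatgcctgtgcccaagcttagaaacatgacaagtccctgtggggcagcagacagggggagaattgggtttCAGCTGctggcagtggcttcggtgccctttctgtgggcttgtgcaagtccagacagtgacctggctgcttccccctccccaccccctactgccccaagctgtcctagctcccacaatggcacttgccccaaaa
Pgam2, chr11:5803797-5804046, minus strand: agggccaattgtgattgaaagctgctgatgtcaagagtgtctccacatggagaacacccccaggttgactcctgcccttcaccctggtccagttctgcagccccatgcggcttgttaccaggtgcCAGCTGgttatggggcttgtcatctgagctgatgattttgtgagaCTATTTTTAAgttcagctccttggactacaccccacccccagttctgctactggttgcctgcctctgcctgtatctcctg
Phkg1, chr5:129879089-129879338, minus strand: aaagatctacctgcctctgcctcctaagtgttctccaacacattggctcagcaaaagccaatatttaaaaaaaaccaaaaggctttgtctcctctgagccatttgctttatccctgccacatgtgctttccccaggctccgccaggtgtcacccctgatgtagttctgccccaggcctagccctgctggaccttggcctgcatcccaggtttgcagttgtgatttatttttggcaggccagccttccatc

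RefSeq windows were found for 8 members, 13 windows in all, since Mb has 3 listed starts and Pfkm 4, some of them overlapping. Both strands were searched. The E-box CANNTG was present in 12 of the 13 windows and in 66.2% of all 32851 windows of this length. Its subtype CAGCTG was present in 6 windows, those of Ckm, Ckmt2, Pgam2 and Pygm and 2 overlapping ones of Mb, and in 13.0% of all windows. Pygm held CAGCTG at -168 and -8, counted back from the start site to the first base of the match, Mb at -133 and Pgam2 at -125. The MEF2 motif was found in Pgam2 alone among the members, as CTATTTTTAA at -80, and in 2.92% of all windows. MCAT (CATTCC), the site of TEAD factors, was found in Eno3 at -47 and in 12.6% of all windows. The CArG box, TATAAA and AAGGTCA (a site of oestrogen-related receptors) were in no member window. They lie in 1.47%, 12.4% and 4.08% of all windows. TATAAA is a single spelling of the TATA box, and other spellings were not searched for. These are matches of letters and show no binding, and any link between them and the differences was not tested.

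Signals were lower in the EiPS tumours for 8 of the 9 measured members, and for 43.8% of all compared genes. Log2 differences, EiPS less B6 ES, had a median of -2.09, against 0.07 over the 10953 genes that could be compared. At least 2-fold lower were 7 of 9 members, and 3.05% of all compared genes. At least 4-fold lower were 5 of 9, and 0.347% of all compared genes. None was at least 2-fold higher, as 5.79% of all compared genes were. The members were chosen on this contrast, so these counts describe the choice and support nothing. A gene is given by its brightest probe set, a signal under 25.99 (the floor, from receptors held silent in these tissues) is set to that value, and fold and log2 values are on that scale.

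Glycogen breakdown was represented by 2 measured genes that differed from each other. Pygm, the muscle glycogen phosphorylase, read 2013 in the B6 ES tumours and 330 in the EiPS tumours. Its EiPS signal was 16.4% of the B6 ES signal, a difference of -2.61, the lowest of the members and the 4th lowest of all compared genes. Phkg1, the catalytic subunit of muscle phosphorylase kinase, was dim, and its probe sets went opposite ways. The brighter one read 40.9 in the B6 ES tumours and 57.2 in the EiPS tumours (0.49), and the other 67.1 and 24.7 (at most -1.37 with the floor). No direction is given for Phkg1.

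Glucose uptake was represented by Slc2a4, the insulin-responsive transporter GLUT4 of muscle and fat. Its brighter probe set had signals of 534 in the B6 ES tumours and 142 in the EiPS tumours, 3.77-fold lower. The other probe set read 193 and 35.3. Both were lower in the EiPS tumours, with log2 differences of -1.91 and -2.45.

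The 3 glycolytic members did not move by like amounts. Pfkm, the muscle phosphofructokinase that commits sugar to glycolysis, had signals of 2137 in the B6 ES tumours and 1188 in the EiPS tumours, 1.80-fold lower. Pgam2, the muscle phosphoglycerate mutase, had signals of 4491 and 782, 5.74-fold lower. Eno3, the muscle enolase, had signals of 8727 and 2050, 4.26-fold lower. Pfkm was thus the least lowered of the 8 lower members, and its difference exceeded that of Pgam2 by 1.68 on the log2 scale. Pfkm is also expressed outside muscle, unlike Pgam2 and Eno3, which are largely muscle genes. The part of this in the smaller difference of Pfkm was not tested.

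Both creatine kinases of striated muscle were lower in the EiPS tumours. Ckm, the cytosolic enzyme, had signals of 8389 in the B6 ES tumours and 2275 in the EiPS tumours, 3.69-fold lower. Ckmt2, its partner in the mitochondria of striated muscle, had signals of 619 and 121, 5.12-fold lower. The difference of Ckmt2 less that of Ckm was -0.47.

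Myoglobin (Mb), the oxygen store of heart and skeletal muscle, had signals of 2698 in the B6 ES tumours and 448 in the EiPS tumours, 6.02-fold lower. Its second probe set was under the floor on both arrays, at 6.02 and 22.1, and gives no comparison. Mb ranked 5th and Pgam2 6th from the lowest among all compared genes, and 3 members were among the lowest 10 and 7 among the lowest 50. The lowest 10 and 50 are 0.0913% and 0.456% of compared genes, and they also held 3 and 8 skeletal muscle contractile markers. The members were chosen on these values, so their ranks describe the choice. The log2 differences of all compared members had an SD of 1.02 over genes and a spread of 3.10 from lowest to highest. Phkg1 and Pfkm were then left out with their values known. The other 7 members spanned -2.61 to -1.88 with an SD of 0.32 over genes, which describes that choice. Over the whole array, probe sets that share a gene differed with an SD of 0.40 (3798 genes). This was 0.54 at signals under 100 and 0.19 at signals over 1000. It is a spread within genes, so it cannot be used to judge the spread between chosen genes.

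**Figure D1:**
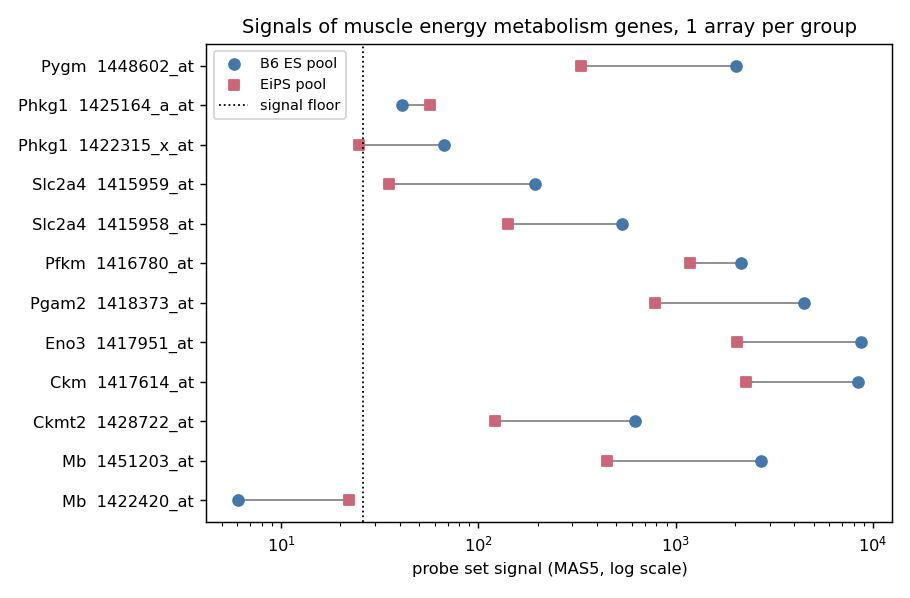
Signals of the 12 probe sets of the 9 measured members on a log scale, circles for B6 ES tumours and squares for EiPS tumours, 1 array each, with the floor of 25.99 dotted. Squares lie left of circles in all but the brighter Phkg1 probe set and the Mb probe set that is under the floor on both arrays.

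**Figure D2:**
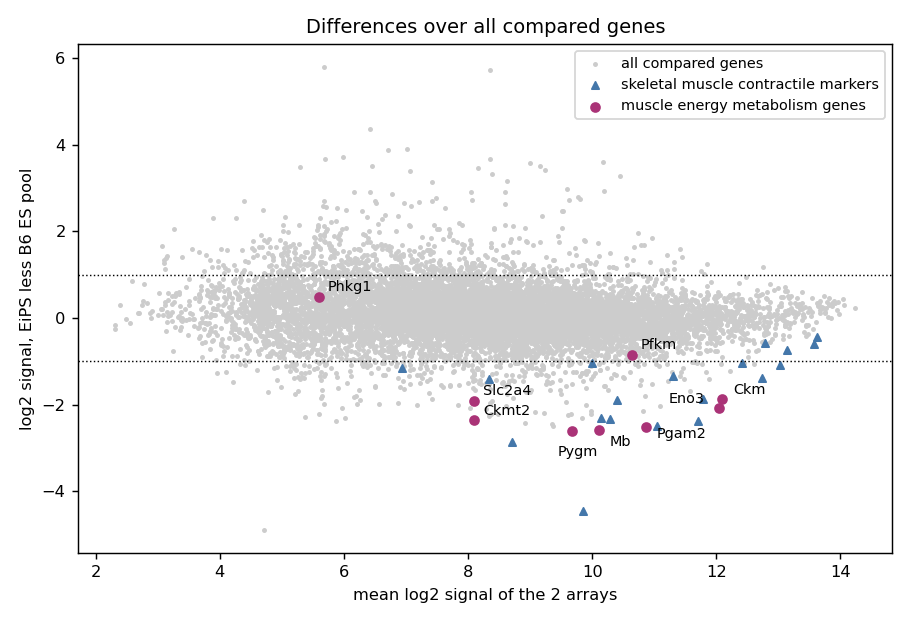
Each point is 1 of the 10953 compared genes, with its mean log2 signal over both arrays on the horizontal axis and its log2 difference (EiPS less B6 ES) on the vertical axis; dotted lines mark 2-fold. Of the members (large dots), 7 lie below the lower line, at mean signals from the middle to the top of the range, as do 15 of the 19 contractile markers (triangles), which span -4.45 to -0.45.

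Against their sister genes, the muscle isoforms had lower differences in 13 of 14 pairs. The exception was Phkg1 against Phkg2, at 0.34, from the dim Phkg1 probe set. A difference within a pair does not depend on the scaling factor of an array. The median over the 14 pairs was -2.28, and 13 pairs were at least 2-fold apart. These pairs come from 9 members, some of them paired more than once. Because the members were chosen on this contrast, the pair counts and the pair median describe that choice and support nothing. Over the 16 measured sister genes, 10 were higher and 6 lower in the EiPS tumours, and their median was 0.21. Of all 10953 compared genes, 6159 were higher and 4794 lower, with a median of 0.07.

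For glycogen phosphorylase, the liver gene Pygl had signals of 224 in the B6 ES tumours and 352 in the EiPS tumours (0.65), and the brain gene Pygb 1696 and 1519 (-0.16). Pygm differed from them by -3.26 and -2.45. The widely expressed mutase Pgam1 had signals of 2806 and 3714 (0.40), so that Pgam2 differed from it by -2.93. For enolase, only the neuronal gene Eno2 could be set beside Eno3; it had signals of 1113 and 1004 (-0.15), and the pair differed by -1.94.

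Among the 13 pairs in which the muscle gene was the lower, that of Pfkm and Pfkp had the smallest contrast. The liver gene Pfkl had signals of 419 in the B6 ES tumours and 825 in the EiPS tumours (0.98), and Pfkp, the platelet type, 1269 and 1873 (0.56). Pfkm differed from them by -1.83 and -1.41. A dim second probe set of Pfkp went the other way, at 64.3 and 31.2.

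Among glucose transporters, Slc2a1 (GLUT1, present in most cells) was higher, with signals of 1701 in the B6 ES tumours and 3151 in the EiPS tumours (0.89). Its 3 probe sets all lay between 0.68 and 0.89. The neuronal type Slc2a3 differed by 0.27, and the dim liver type Slc2a2, at 35.1 and 48.7, by 0.47. Slc2a4 differed from these by -2.80, -2.18 and -2.39.

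The brain creatine kinase Ckb had signals of 6699 in the B6 ES tumours and 6028 in the EiPS tumours (-0.15), against which Ckm differed by -1.73. Ckmt1, the mitochondrial form of other tissues, had 475 and 570 (0.26), against which Ckmt2 differed by -2.62. A second probe set of Ckmt1 went the other way, at 296 and 275 (-0.11). Among globins, Cygb, present in fibroblast-like cells, had 146 and 142 (-0.04). The neuronal globin Ngb was itself lower, at 121 and 57.1 (-1.08), which made its pair with Mb the narrower, at -1.51 against -2.55 for Cygb. The remaining sister genes were Ampd2 (0.15) and Ampd3 (-0.12), which have no measured muscle partner here, and Phkg2 (0.15).

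**Figure D3:**
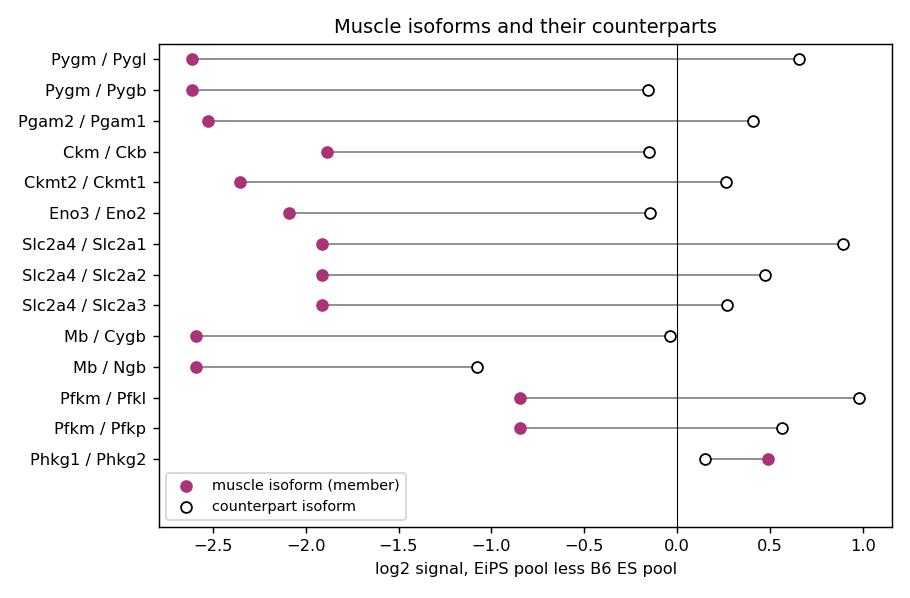
Log2 differences (EiPS less B6 ES, 1 array each) of each member (filled) and of a sister gene (open), 1 line a pair. The filled points lie left of the open ones in 13 of the 14 pairs, and the pair of Phkg1 and Phkg2 is the exception.

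By list median, the other genes of the same pathways differed less than the members, which were chosen on this contrast. Some were lowered more than the member Pfkm (-0.85), among them Stbd1 (-1.34) and Gyg (-1.27). Of 13 measured genes of glycogen synthesis and breakdown, 10 were lower, 2 of them by 2-fold or more, and 3 were higher, and their median was -0.63. Stbd1, a glycogen-binding protein of muscle, was 2.52-fold lower (1425 and 565), and Gyg, the glycogenin that primes glycogen, 2.40-fold lower (1634 and 680). Gbe1, the branching enzyme, and Phka1, the muscle regulatory subunit of phosphorylase kinase, were 1.87-fold and 1.80-fold lower (Phka1 -0.85). The other probe sets of Phka1 differed by only -0.37 (110 and 85.0) and -0.22 (198 and 169). Phka2, the liver form of that subunit, was 1.17-fold higher (0.22). Glycogen synthase of muscle, Gys1, had signals of 609 and 393, 1.55-fold lower.

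Of 14 measured other glycolysis genes, most of them widely expressed, 9 were lower and 5 higher, with a median of -0.12, which was 0.24 when probe sets shared by several transcripts were left out. None was at least 2-fold lower. Fbp2, the muscle fructose bisphosphatase, was 1.65-fold lower (262 and 158), while Pfkfb3, which makes the activator of phosphofructokinase, was 2.05-fold higher (184 and 377). Slc16a3, a lactate exporter, was 1.60-fold higher at low signals (56.0 and 89.8), and Pgk1, phosphoglycerate kinase, 1.46-fold higher (5661 and 8292). Aldoa, an aldolase abundant in muscle, had signals of 12222 and 9754, and Ldha, lactate dehydrogenase, 7726 and 7281.

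Mitochondrial and fatty acid genes of muscle were lower in 13 of 14 cases, 5 of them by 2-fold or more, and their median was -0.68. Cox6a2 and Cox8b, subunits of cytochrome oxidase found in striated muscle, were 3.48-fold (3452 and 993) and 3.09-fold lower (1689 and 546). Pdk4, a kinase that holds back pyruvate oxidation, was 2.32-fold lower and Idh3a, an enzyme of the citric acid cycle, 2.15-fold lower. The fatty acid carrier Cd36 was the 1 higher gene, at 1.51-fold (242 and 366).

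Of 11 compared regulators held to act on these genes, 8 were lower and 3 higher, none by 2-fold when each is read by its brightest probe set, with a median of -0.29. By that reading the 3 Mef2 genes were lower, Mef2c 1.62-fold (2187 and 1354), Mef2d 1.53-fold (850 and 555) and Mef2a 1.53-fold (1702 and 1113). Other probe sets of Mef2c differed by down to -1.13, and a dim one of Mef2a by at most -1.93, from 99.3 to a signal under the floor. Ppargc1a, a coactivator of mitochondrial genes, was 1.48-fold lower (538 and 364) by its brightest probe set, a log2 difference of -0.56. Its other 4 probe sets were lowered more, by -0.95 (570 and 295), -1.13 (518 and 237), -1.27 (502 and 208) and -1.23 (225 and 96.0). Esrrg, an orphan receptor of oxidative muscle, was dim, at 35.1 and 40.4.

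Skeletal muscle markers moved with the members. The 19 measured contractile and calcium-handling markers were all lower in the EiPS tumours, 15 of them by 2-fold or more and 6 by 4-fold or more. Their median was -1.38, with differences from -4.45 (Myh4) to -0.45 (Acta1, 14730 and 10769). Their summed signal was 120156 in the B6 ES tumours and 56049 in the EiPS tumours, 46.6% of the former. Over the 9 members the summed signal was 29650 and 7393, 24.9%. The median of the members less that of the contractile markers was -0.71, and between -0.96 and -0.57 in the alternatives tried. This gap and the sums describe the choice of the members, which was made on this contrast, and support nothing. The most lowered markers, after Myh4, were Tmod4, a thin-filament cap, Atp2a1, the calcium pump of fast fibres, and Myh1, a fast adult myosin, at 7.30-fold, 5.66-fold and 5.21-fold lower. Their part in the members' values was not tested.

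Fibre type and maturity markers were not lowered evenly. Of 11 fast fibre genes, 10 of which are also in the contractile list, all were lower, with a median of -1.87 (-1.38 without shared probe sets), and 4 were at least 4-fold lower. Of 8 slow fibre genes, 6 were lower, 1 at least 2-fold, with a median of -0.56, which was -0.11 without shared probe sets. Casq2, a calsequestrin, was 2.02-fold lower (2405 and 1192), and the light chain Myl2, at low signals, 1.82-fold (110 and 60.5). The slow troponin Tnnt1 was 1.49-fold lower (3622 and 2425). Atp2a2, a calcium pump, was 1.48-fold lower when read by the brightest of its 4 probe sets, which spanned -1.05 to 0.16. The slow myosin Myh7 was 1.29-fold higher (313 and 403). The fast median less the slow median was -1.32. The embryonic myosin Myh3 was lower by less than 2-fold (8668 and 5784, a log2 difference of -0.58) and the perinatal Myh8 2.14-fold lower (12181 and 5694). Among myogenic regulators, Myf6, a factor of mature fibres, was 5.62-fold lower (1565 and 279), while Myog and Myod1 were 1.33-fold and 1.59-fold lower. Musk and Chrna1, of the nerve-muscle junction, were 2.35-fold and 2.11-fold lower. The progenitor factor Pax3 was higher by at least 4.39-fold, from a signal under the floor (20.0) to 114. Its dimmer probe set rose less, from 19.9, also under the floor, to 45.9 (at least 0.82). Other genes of the list that holds Pax3 did not move as far up. Pax7 differed by 0.26 at low signals (52.3 and 62.8). Myf5 (580 and 355) and Cdh15 (582 and 492) were lower, by -0.71 and -0.24. Of the list of 10 progenitor and regulatory genes, 8 were lower and 2 higher, with a median of -0.69.

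Some members are also expressed in heart and fat. Cardiac markers were mostly lower, as the members were, though by less at the median, and fat markers were mostly higher. Of 11 compared cardiac markers, 7 were lower and 4 higher, with a median of -0.66 and summed signals of 15489 and 8607. Among those with the largest differences, Myh6 (135 and 56.1), Pln (69.3 and 38.5) and Tnni3 (53.8 and 84.7) were dim, Nppa was under the floor in the EiPS tumours (62.3 and 3.85, at least 2.40-fold lower), and Tbx5 was under the floor on both arrays. The cardiac sums were mostly those of the bright Myl4 (8459 and 5065) and Tnnt2 (6301 and 2990). Tnnt2 is also made by embryonic skeletal muscle, so these sums cannot be read as signal of heart cells. Of 6 compared fat markers, 5 were higher and 1 lower, with a median of 1.75 and summed signals of 1627 and 5123. Only 3 of the 6 exceeded the floor in both groups, and the median was 1.01 with a floor of 100 or without shared probe sets. Fabp4, a fatty acid carrier of fat cells, was 7.90-fold higher, Adipoq at least 11.2-fold higher (5.27 and 291) and the lipase Lpl 2.01-fold higher. Retn, the hormone resistin, was at least 5.64-fold higher (4.58 and 147). Slc2a4, the member also found in fat cells, was lower. Cidea, found in brown fat, had signals of 195 and 186, and Ucp1 and Lep were under the floor on both arrays. Whether heart or fat cells had a part in the members' values was not tested.

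Markers of smooth muscle and neurons were lower as well. All 7 smooth muscle markers were lower, 4 at least 2-fold, with a median of -1.31, and the smooth muscle proteins Cnn1 and Myh11 were 4.25-fold and 3.79-fold lower, followed by Smtn and Actg2 at 2.51-fold and 2.48-fold. All 10 neuron markers were lower, 5 at least 2-fold, with a median of -0.99, led by the glutamate transporter Slc17a6 (4.48-fold) and Th, the enzyme of dopamine synthesis (3.56-fold), then by Nefl (2.77-fold) and Stmn2 (2.66-fold). Widely used control genes had a median of -0.07 over 6 genes and spanned -0.38 (Hprt) to 0.32 (Rplp0), with Ywhaz at -0.30 and Sdha at -0.27. The part of these cell types in the members' values was not tested.

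**Figure D4:**
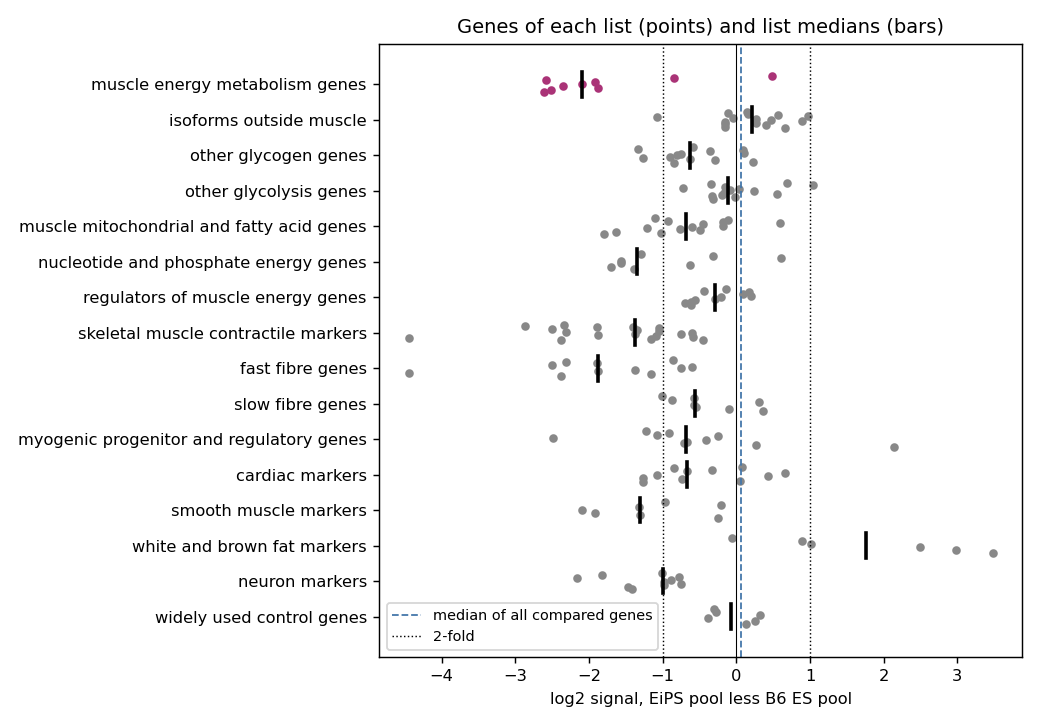
Log2 differences (EiPS less B6 ES) of the genes of each list, 1 point a gene, with the list median as a bar, the median of all compared genes dashed at 0.07 and 2-fold dotted. The median of the members, which were chosen on this contrast, lies furthest left at -2.09. Fast fibre genes come next at -1.87, and fat markers lie furthest right at 1.75.

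The genes with signals most like those of the median member, by distance over the log2 signals of the 2 arrays, were Hspb7, Myoz1, S100g, Myom2 and Actn3. Hspb7, a small heat shock protein of striated muscle, had signals of 2180 and 472, and Myoz1, a Z-disc protein of fast fibres, 2132 and 482. S100g, a calcium-binding protein of epithelia, had 2045 and 413, Myom2, an M-band protein, 1918 and 476, and Actn3, the fast-fibre actinin, 2520 and 507. With 2 arrays, likeness means only a similar signal on each.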

How the data were processed

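The authors deposited linear intensity values per probe set. Per the submitters' processing notes these came from Affymetrix Expression Console and MAS5, whose versions are not given in the sources here. RNA was extracted, and cRNA labelled with biotin from 5 µg of total RNA, per the labels' protocols. Both arrays had a 2% trimmed mean of 500.2, so they were taken as scaled, and no further scaling was applied. MAS5 scaling gives relative amounts, and low signals are noisy. Over 22690 probe sets the medians were 179 (B6 ES) and 196 (EiPS).

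Gene names came from the platform's annotation, updated by Entrez identifier with RefSeq (GRCm38.p6, names only): 20380 had 1 symbol, of which 20351 matched, 691 several, 1555 none and 64 were controls. A gene took its brightest probe set by mean log2 signal. The floor was the 90th percentile of 71 probe sets for olfactory, vomeronasal, taste and trace amine receptors, and 1440 genes under it on both arrays were left out. Differences are EiPS less B6 ES, computed in Python 3.11.15 with pandas 2.3.3, and checked on simulated data. No test was run, with 1 array per group, and that number limits the precision.

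The members and the 15 other lists were chosen with earlier results of these data known. Named were all members, all measured sister genes and the 5 genes nearest the median member. In each other list, the up to 4 genes with the largest differences and the largest in the opposite direction were named. Acta1, Aldoa, Cdh15, Gys1, Ldha, Myf5, Myh3, Myh8, Myl4, Myod1, Myog and Pax7, and genes named only as under the floor, were added after their values were seen. The alternatives were other floors, log2(signal + 64), 3 scalings, the mean over probe sets, and no shared probe sets.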

Additional observations from a re-analysis of the deposited data

How the results depend on the processing

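No paired analysis was possible because each group has 1 array and the labels give no replicate numbers. Over 10 alternatives and the removal of Phkg1 (added after seeing the data), the members' median stayed between -2.22 and -1.88, 7 members were at least 2-fold lower in each, and 4 to 7 at least 4-fold lower. The median over isoform pairs was between -2.45 and -1.87, the latter with log2(signal + 64), which understates differences of dim genes. Phkg1 turned to -0.48 with probe sets averaged and Pfkp to -0.24. With shared probe sets left out, the medians of slow and fast fibre genes moved as given above, and that of nucleotide and phosphate energy genes was -0.63. Ngb differed by -0.27 with a floor of 100 and -0.61 with log2(signal + 64), where Ckmt2 differed by -1.88.

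Over all genes, 634 were at least 2-fold higher (65.5% of calls) and 334 lower, with 38 lower by 4-fold or more. That share was 52.6% after quantile normalization (442 lower, 490 higher), 52.3% with equal medians (456 and 499) and 56.6% with loess (406 and 529). Equal medians moved the median of all genes from 0.07 to -0.06. With log2(signal + 64) the counts were 187, 246 and 20, with no floor 720, 1249 and 227, and with a floor of 100 there were 305 higher. The cause of these shifts was not tested.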

Other observations

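Genes of creatine supply and of the purine nucleotide cycle were mostly lower, as the creatine kinases were. Gatm and Gamt, the enzymes that make creatine, were 2.97-fold (2026 and 682) and 2.96-fold lower (1316 and 445) in the EiPS tumours, while Slc6a8, the transporter that brings creatine into cells, was 1.52-fold higher (813 and 1238). Adssl1, the muscle adenylosuccinate synthase that works beside AMP deaminase, was 3.27-fold lower (923 and 283), and Ak1, the adenylate kinase of muscle and brain, 2.63-fold lower (2054 and 781). Of the 8 measured genes of this list, 7 were lower and 5 at least 2-fold, with a median of -1.34, which was -0.63 without shared probe sets.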
